A study of Homo sapiens with 6 samples.

Results

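The mRNAs described here encode the translation initiation and elongation factors of K562 cells. They were taken as the protein-coding rows of the count table whose gene symbol begins with EIF1, EIF2, EIF3, EIF4, EIF5, EIF6 or EEF, without the 4 kinases of eIF2 alpha (EIF2AK1 to EIF2AK4). This gave 66 of the 61661 rows, of which 61 held enough reads to be tested. The prefix also brings in some companions of the factors, such as the enzymes that methylate or phosphorylate elongation factors (EEF1AKMT1, EEF1AKMT2, EEF1AKMT3, EEF2KMT and EEF2K) and the eIF4E transporter EIF4ENIF1.

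K562 is an immortal line, long established from a patient with chronic myeloid leukemia in blast crisis. The libraries came from shCTR cells, labelled wild type, from shMETTL3 cells and from shMETTL14 cells, with 2 libraries in each of the 3 groups. As the study's methods describe, shCTR and shMETTL3 were stable lentiviral lines in which a U6 promoter drove a nonsense sequence or an shRNA against METTL3, next to GFP and puromycin resistance, and which were selected with puromycin. The shMETTL14 cells carried an shRNA against METTL14, and how they were made is not given in the sources used here. All groups were grown in the same medium and were harvested in logarithmic growth, and the labels name no separate cultures for the libraries of a group, so p-values measure only the spread between these samples, which may be technical.

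METTL3 and METTL14 form the core of the complex that writes N6-methyladenosine (m6A) on mRNA. Translation begins when eIF2 brings the initiator tRNA to the small ribosomal subunit, eIF3 holds that subunit, and the cap-binding eIF4F complex (eIF4E, eIF4G and eIF4A) loads it onto the mRNA, where eIF1, eIF1A and eIF5 help to choose the start codon. eEF1A then delivers each aminoacyl-tRNA, the eEF1B subunits recharge it with GTP, and eEF2 moves the ribosome along. The mRNAs of many elongation factors, and of some initiation factors, begin with a C and a run of pyrimidines (a terminal oligopyrimidine or TOP start), which ties their translation to mTORC1 signaling.

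Because members with such a start recur among the lower mRNAs described further on, their start sites are shown first. Of the 66 members, 53 had a start site in RefSeq's promoter table (GRCh38.p14), with 70 sites between them, and 13 members had a site at which a C followed by 4 pyrimidines (C or T) opened the transcript. The sequences below run 5′ to 3′ along the mRNA strand over 30 bases. Before the listed start lie 22 bases of promoter, and capitals mark the first 5 bases from it. Starts were not measured in these cells, and an mRNA that starts a few bases away could open differently. EIF2S3B, EIF3D, EIF3K and EIF4A2 share the start, were not called lower and are not printed. EEF1B2 and EIF2S3B also have a site without the start. Printed are the 7 members with this start that were lower in a knockdown. EEF2 and EIF2D follow, which share the start and were not.
EEF1A1 (chr6:73521025-73521054, minus strand): tgcagtagtcgccgtgaacgttCTTTTtcg
EEF1B2 (chr2:206159873-206159902, plus strand): gaattttccggtctcttcgggtCCTTTttc
EIF2A (chr3:150546765-150546794, plus strand): tgaactctcacccgagcggtttCTCTTtcc
EIF2S3 (chrX:24054934-24054963, plus strand): ggcagccggggtgatttccttcCTCTTttg
EIF3F (chr11:7987315-7987344, plus strand): ctgtcatttccgcttccgcctcCTTCTttc
EIF3M (chr11:32583809-32583838, plus strand): cagcgtcgcgcggcccagttccCTTTTccg
EIF4B (chr12:53006434-53006463, plus strand): cacgtgattgcctcatccgggtCTTTTgcg
EEF2 (chr19:3985456-3985485, minus strand): gctgagtgttgacgtcagcgttCTCTTccg
EIF2D (chr1:206612458-206612487, minus strand): cggccctggtttccagccgggcCCTTTtcg
Over all 35116 start sites in the table, 4.07% opened in this way, and 5.14% of the 27305 genes had such a site.

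Library totals lay between 19292574 and 20115304 reads. Levels are given as CPM (a gene's reads relative to the library total) scaled by TMM factors. Such scaling sets each difference against the bulk of the other genes, and cells with less mRNA in all would not be recognized. METTL3 fell from 90.4 CPM in shCTR to 49.6 CPM in shMETTL3 cells, by 0.87 on the log2 scale (edgeR quasi-likelihood test, adjusted p = 3.44e-07), and METTL14 fell from 33.7 to 19.8 CPM in shMETTL14 cells, by 0.76 (adjusted p = 1.40e-05), in each case as the label names. All 11 K562 markers had more than 3 reads in every library, with a summed level of 2180 to 2380 CPM. Single markers varied more, since the embryonic globin HBE1 ran from 198 to 433 CPM over the libraries and was higher by 0.96 in shMETTL3 and by 0.41 in shMETTL14 cells on the log2 scale (adjusted p = 1.64e-08 and 8.14e-04), and HBZ ran from 5.25 to 12.9 CPM, with 1.02 and 0.06 (adjusted p = 1.92e-04 and 0.882). The rows of the globins HBG1 and HBG2, close copies of each other, held 0.509 to 1.1 CPM and 6.53 to 6.98 CPM. They add little to a sum in which TFRC had 740 to 894 CPM. How reads that fit both copies were assigned is not given in the sources used here. These rows may thus not hold all of the genes' reads. Of 3 monocyte markers, CD14 and CSF1R had at most 3 reads in any library. The third, LYZ, stood at 42.0 and 43.9 CPM in shCTR, 16.5 and 15.4 CPM in shMETTL3, and 59.9 and 64.9 CPM in shMETTL14 libraries. The part of these markers in the results was not tested. In bulk RNA, fewer cells of a kind and less RNA per cell cannot be told apart.

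Together the 66 mRNAs made up 3.87% and 3.97% of the reads of shCTR, 3.73% and 3.69% of shMETTL3, and 3.75% and 3.85% of shMETTL14. The shCTR libraries were the highest, and the shMETTL3 libraries the lowest. The 95% Wilson intervals of these shares reached at most 0.0087 percentage points to either side and, like all counting intervals here, cover counting error only, since PCR copies were not told apart. EEF1A1 alone held between 1.89% and 2.13% of a library and EEF2 between 0.605% and 0.674%.

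In shMETTL3 cells, 16 of the 61 factors tested differed from shCTR, 13 of them lower and 3 higher, which is 26.2% of the factors against 16.5% of all 17686 genes tested. By direction, 21.3% were lower against 7.73% of all genes, and 4.92% were higher against 8.73%. The lower mRNAs were spread over most steps of translation: EEF1A1 and EEF1B2 of the eEF1 complex, EIF2S3 and EIF2B3 of the eIF2 cycle, EIF2A, the eIF3 subunits EIF3B, EIF3E, EIF3H and EIF3M, the cap and helicase factors EIF4E, EIF4A1 and EIF4B, and EIF5. The higher ones were the tissue-restricted eEF1A isoform EEF1A2, EIF3C and the cap-binding protein EIF4E3. The median log2 fold change over the 61 factors was -0.08, with 41 of them below 0, where the median of all genes was 0.00. The CPM of the 2 groups did not overlap for 29 factors that were lower and 11 that were higher, against 27.3% and 28.7% of all genes. The count rests on both shMETTL3 libraries, since without either of them fewer factors, and fewer of all genes, were called. The median log2 fold change over the factors was -0.09 without shMETTL3 replicate 1 and -0.07 without replicate 2. Without replicate 2 the lower calls barely outnumbered the higher ones. Scaled by library size alone, 9 were lower and 4 higher. After a trend with GC content and transcript length was removed, EIF2A, EIF3E and EIF3H kept their calls at -0.16, -0.13 and -0.14 (adjusted p = 0.0244, 0.0431 and 0.04), each closer to 0 by more than 1.5 times.

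In shMETTL14 cells, 6 of the 61 factors differed from shCTR and all 6 were lower: EEF1A2, EEF1B2, EIF2B3, EIF2S3, EIF3F and EIF3M. This is 9.84% of the factors against 6.69% of all genes, and against 3.26% of all genes in the lower direction. The edgeR test called 0 factors higher, against 3.43% of all genes, with 2 at an unadjusted p under 0.05, and DESeq2 also called 0. The median log2 fold change was -0.06, with 46 of the 61 below 0, where the median of all genes was -0.00. The groups did not overlap for 29 lower and 7 higher factors, against 23.9% and 25.0% of all genes. Without either shMETTL14 library 1 factor was called, and without either shMETTL3 library, which leaves fewer samples to estimate the spread, 3 were called. Both knockdowns were set against the same shCTR libraries, so a deviation of those libraries enters both comparisons.

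**Figure D1:**
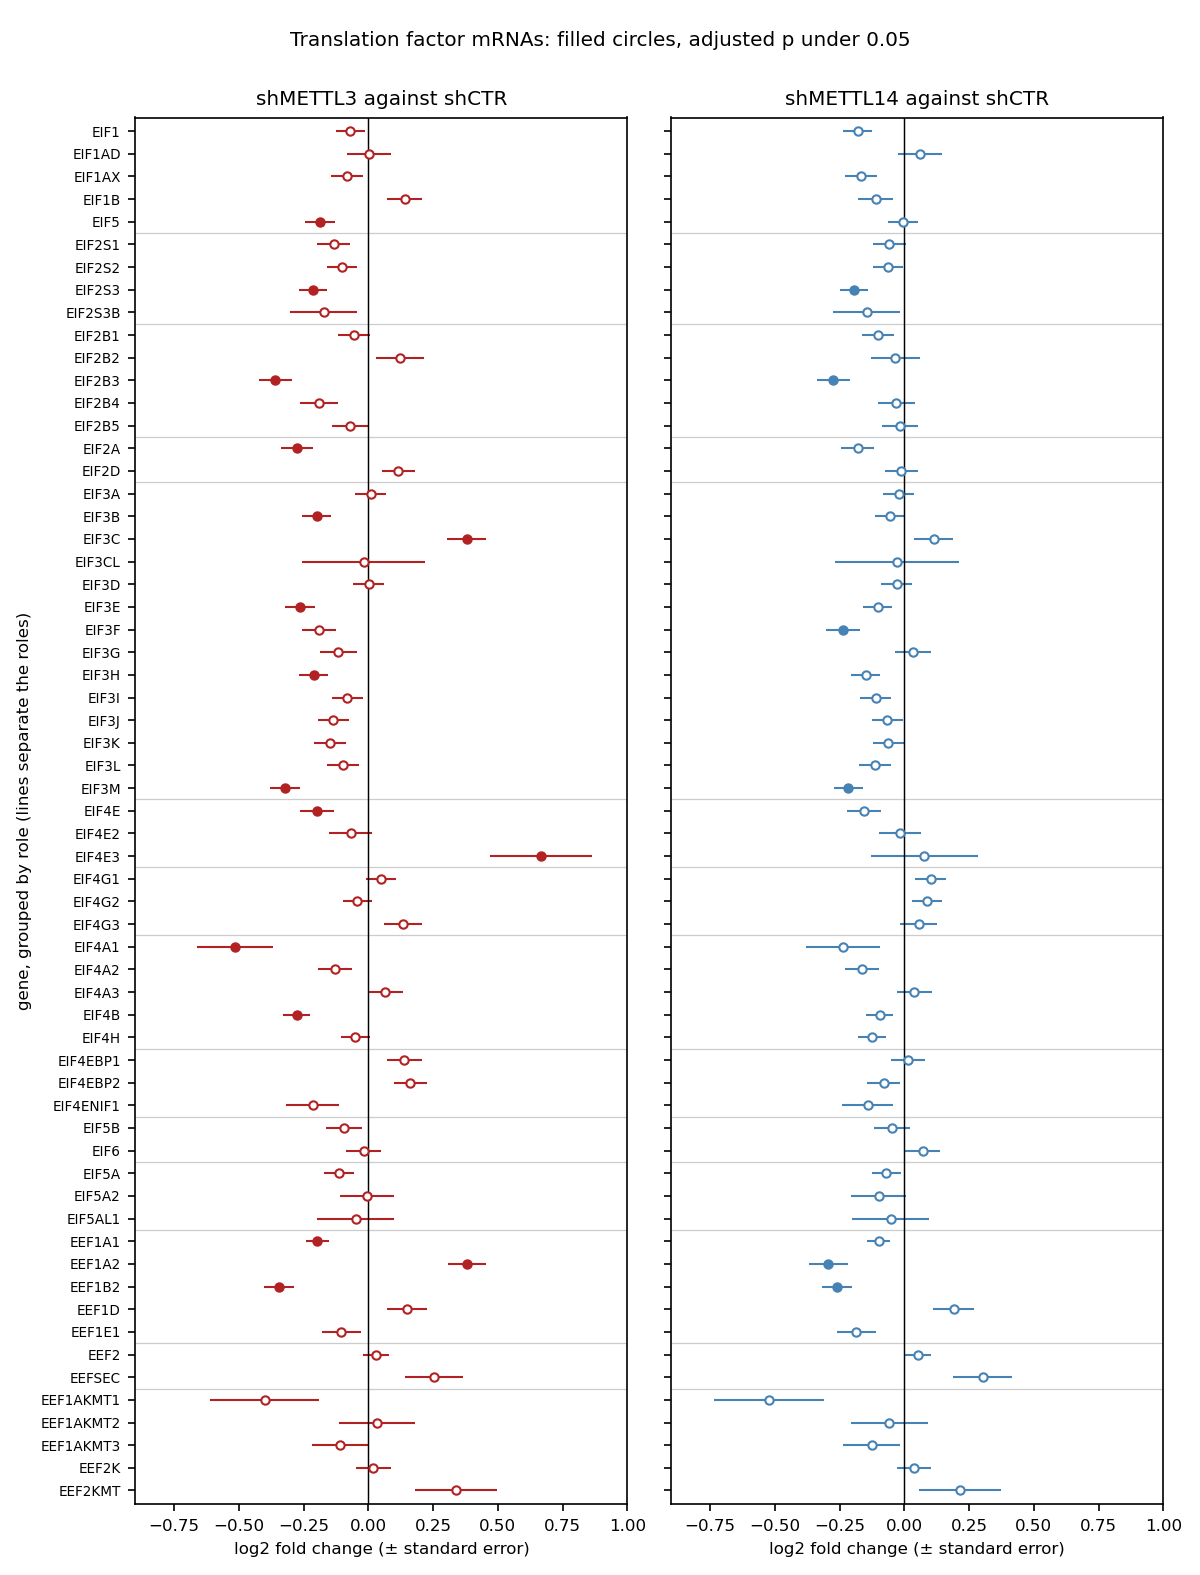
Log2 fold change with its standard error (x axis) for the 61 factors tested (y axis, grouped by role), with shMETTL3 against shCTR on the left and shMETTL14 against shCTR on the right; filled circles have an adjusted p under 0.05. On the left, 13 filled circles lie below 0 and 3 above (EIF3C, EIF4E3 and EEF1A2), and on the right all 6 lie below 0.

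Among the elongation factors, EEF1A1, the isoform of eEF1A found in most tissues, was the most abundant. It had 4830 ± 97.4 CPM per kb of its longest GENCODE transcript in shCTR cells (SD, n = 2). EEF2 had 2040 ± 135 CPM per kb, and EEF1A2, the isoform best known from neurons and muscle, had 24.1 ± 2.85 CPM per kb. EEF1A1 stood at 21150 and 21760 CPM in shCTR, 18890 and 18540 CPM in shMETTL3, and 19460 and 20590 CPM in shMETTL14 libraries. Both knockdowns lay below shCTR without overlap. Its log2 fold change was -0.20 in shMETTL3 cells (standard error 0.04, adjusted p = 0.00492) and -0.10 in shMETTL14 cells (standard error 0.04, adjusted p = 0.209). Without shMETTL3 replicate 1 or 2 the call was lost, at -0.21 (adjusted p = 0.0701) and -0.18 (adjusted p = 0.129).

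EEF1A2 moved differently in the knockdowns. It stood at 88.3 and 104 CPM in shCTR, 127 and 124 CPM in shMETTL3, and 78.0 and 79.1 CPM in shMETTL14 libraries. No groups overlapped, with shMETTL3 above and shMETTL14 below shCTR. Its log2 fold change was 0.38 in shMETTL3 cells (standard error 0.07, adjusted p = 0.00129) and -0.29 in shMETTL14 cells (standard error 0.07, adjusted p = 0.0208). Set directly against shMETTL14, shMETTL3 cells were higher by 0.68 on the log2 scale (95% interval 0.52 to 0.83, adjusted p = 3.07e-06). The shMETTL3 value was 0.20 with the GC and length trend removed (adjusted p = 0.0128) and 0.26 without shCTR replicate 1 (adjusted p = 0.0126). The shMETTL14 call was lost without shCTR replicate 2, which had the higher shCTR value (-0.17, adjusted p = 0.115), and without either shMETTL14 library (-0.28 and -0.30, adjusted p = 0.224 and 0.14).

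EEF1B2, the subunit that exchanges GDP for GTP on eEF1A, had 376 and 392 CPM in shCTR, 303 and 301 CPM in shMETTL3, and 312 and 329 CPM in shMETTL14 libraries. It was lower than shCTR in both knockdowns, with log2 fold changes of -0.34 (standard error 0.06, adjusted p = 3.87e-04) and -0.26 (standard error 0.06, adjusted p = 0.00856). The shMETTL14 value fell short of the threshold without shMETTL14 replicate 1 (-0.22, adjusted p = 0.186). Exons of EEF1B2 share 16.4% of their bases with small RNA genes on the same strand. The delta subunit EEF1D, which also exchanges nucleotide, did not pass the test, with 0.15 and 0.19 (adjusted p = 0.207 and 0.165), and 34.0% of its exon bases lie opposite exons of other genes. EEF1E1, which also belongs to the multi-synthetase complex, gave -0.11 and -0.19 (adjusted p = 0.371 and 0.161). The gamma subunit EEF1G was listed with 0 reads in all 6 libraries. In GENCODE release 29, 99.9% of its exon bases are shared with a second gene on the same strand, AP002990.1, so its row may not measure its level.

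The translocase EEF2 had 6160 and 6764 CPM in shCTR, 6587 and 6595 CPM in shMETTL3, and 6728 and 6674 CPM in shMETTL14 libraries. All 4 knockdown values lay between those of the shCTR libraries, and the log2 fold changes were 0.03 (95% interval -0.08 to 0.13) and 0.05 (95% interval -0.05 to 0.16). EEFSEC, which carries selenocysteine tRNA to the ribosome, was at 13.1 and 14.5 CPM in shCTR, 15.4 and 17.5 CPM in shMETTL3, and 17.7 and 16.3 CPM in shMETTL14 libraries. Its values of 0.25 and 0.30 did not pass the test (adjusted p = 0.134 and 0.122), although no groups overlapped with shCTR. None of the 5 modifying enzymes was called by edgeR in either knockdown, and EEF2K, the kinase that inhibits eEF2, gave 0.02 and 0.04 (adjusted p = 0.886 and 0.811). EEF1AKMT1, a lysine methyltransferase for eEF1A, had the widest errors of these enzymes, with -0.40 (standard error 0.21, adjusted p = 0.21) and -0.52 (standard error 0.21, adjusted p = 0.16) at a level of 2.40 to 4.10 CPM.

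**Figure D2:**
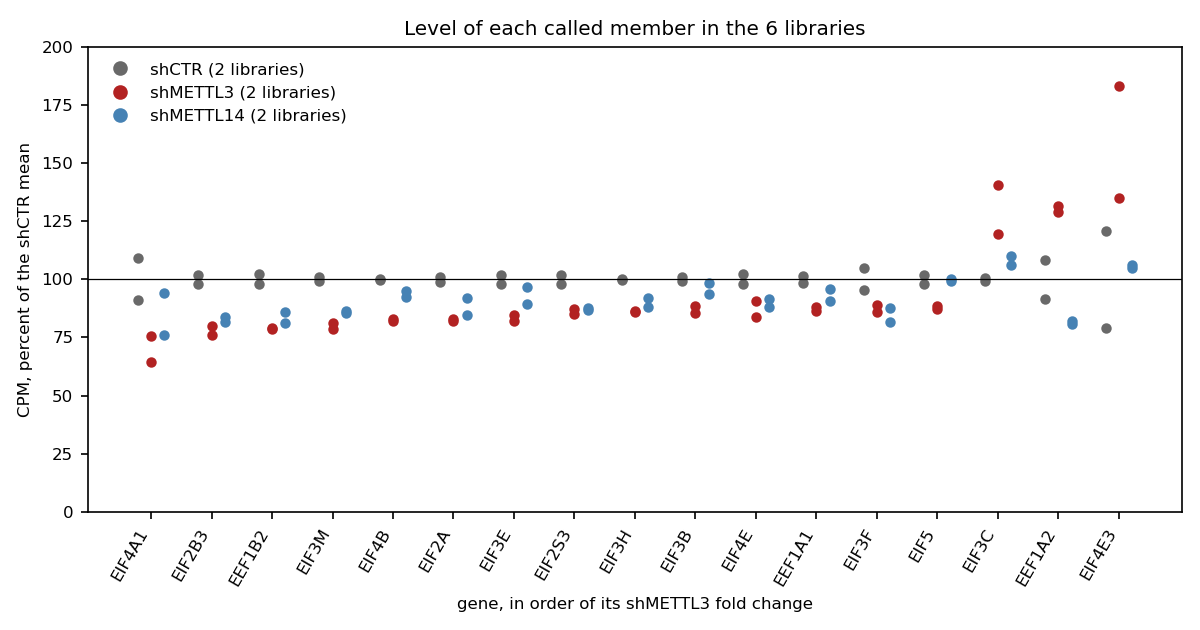
CPM of each library as a percent of the shCTR mean (y axis) for the 17 factors called in either knockdown (x axis, in order of their shMETTL3 fold change), with 2 points per group. From EIF4A1 to EIF5 the shMETTL3 points lie below 100, while EIF3C, EEF1A2 and EIF4E3 lie above it, and EEF1A2 is the gene whose shMETTL14 points lie on the other side of 100 from its shMETTL3 points without overlapping shCTR.

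The eIF2 complex delivers the initiator tRNA, and eIF2B recharges it with GTP. EIF2S3, the gamma subunit that binds GTP and the tRNA, had 779 and 750 CPM in shCTR, 666 and 652 CPM in shMETTL3, and 665 and 671 CPM in shMETTL14 libraries. Both knockdowns were lower without overlap, with log2 fold changes of -0.21 (standard error 0.05, adjusted p = 0.00922) and -0.20 (standard error 0.05, adjusted p = 0.0317). The alpha subunit EIF2S1, whose phosphorylation slows initiation, gave -0.13 and -0.06 (adjusted p = 0.16 and 0.661), and the beta subunit EIF2S2 gave -0.10 and -0.06 (adjusted p = 0.248 and 0.588). EIF2S3B, a close copy of EIF2S3, had 11.9 ± 1.53 CPM in shMETTL3 and 13.3 ± 1.59 CPM in shCTR cells (SD, n = 2), and reads could be split between the copies. The EIF2S3 call in shMETTL3 cells was lost without shMETTL3 replicate 1 (-0.23, adjusted p = 0.0742) or replicate 2 (-0.20, adjusted p = 0.149). In shMETTL14 cells it was lost under 7 of 14 alternatives, with adjusted p up to 0.226.

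EIF2B3, the gamma subunit of the exchange factor, was the one subunit of its complex that was called. It had 109 and 105 CPM in shCTR, 85.2 and 81.3 CPM in shMETTL3, and 89.6 and 87.1 CPM in shMETTL14 libraries. Neither knockdown overlapped with shCTR, and the log2 fold changes were -0.36 (standard error 0.06, adjusted p = 7.48e-04) and -0.27 (standard error 0.06, adjusted p = 0.0126). The other four subunits, EIF2B1, EIF2B2, EIF2B4 and EIF2B5, were not called, with log2 fold changes between -0.19 (EIF2B4) and 0.12 (EIF2B2) in shMETTL3 cells. Without shMETTL14 replicate 1 or 2 the EIF2B3 value in shMETTL14 cells was -0.30 (adjusted p = 0.124) and -0.25 (adjusted p = 0.162).

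EIF2A and EIF2D can bring initiator tRNA to the ribosome without eIF2. EIF2A had 164 and 161 CPM in shCTR, 135 and 134 CPM in shMETTL3, and 138 and 150 CPM in shMETTL14 libraries, with both knockdowns below shCTR. On the log2 scale the difference was -0.28 in shMETTL3 cells (standard error 0.06, adjusted p = 0.00516) and -0.18 in shMETTL14 cells (standard error 0.06, adjusted p = 0.0969). EIF2D gave 0.11 and -0.01 (adjusted p = 0.238 and 0.945). The shMETTL3 call of EIF2A was lost without shMETTL3 replicate 2 (-0.27, adjusted p = 0.0789).

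The eIF3 complex, the largest initiation factor, is represented by 14 rows, of which 4 were lower and 1 higher in shMETTL3 cells and 2 were lower in shMETTL14 cells. Of all genes tested, 7.73% were lower and 8.73% higher in shMETTL3 cells and 3.26% lower in shMETTL14 cells. EIF3M, a subunit of the core of eIF3, had 310 and 316 CPM in shCTR, 255 and 246 CPM in shMETTL3, and 268 and 271 CPM in shMETTL14 libraries. It was below shCTR in every knockdown library, with log2 fold changes of -0.32 (standard error 0.06, adjusted p = 6.66e-04) and -0.22 (standard error 0.06, adjusted p = 0.0256). EIF3E, another subunit of the core, had 761 and 733 CPM in shCTR, 632 and 612 CPM in shMETTL3, and 669 and 722 CPM in shMETTL14 libraries. Its shMETTL3 value of -0.26 passed the test (standard error 0.06, adjusted p = 0.00315) and its shMETTL14 value of -0.10 did not (standard error 0.06, adjusted p = 0.315).

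EIF3H and EIF3F are further subunits of that core. EIF3H had 419 and 417 CPM in shCTR, 360 and 362 CPM in shMETTL3, and 369 and 384 CPM in shMETTL14 libraries, and its log2 fold changes were -0.21 (standard error 0.06, adjusted p = 0.0128) and -0.15 (standard error 0.06, adjusted p = 0.12). EIF3F had 160 and 176 CPM in shCTR, 144 and 150 CPM in shMETTL3, and 137 and 147 CPM in shMETTL14 libraries, with -0.19 (standard error 0.07, adjusted p = 0.0528) and -0.24 (standard error 0.07, adjusted p = 0.0345). For both genes all knockdown libraries lay below both shCTR libraries. The RNA-binding subunit EIF3B had 452 and 459 CPM in shCTR, 403 and 390 CPM in shMETTL3, and 449 and 426 CPM in shMETTL14 libraries. It was called in shMETTL3 cells at -0.20 (standard error 0.06, adjusted p = 0.0193), where shMETTL14 gave -0.06 (adjusted p = 0.616).

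These eIF3 calls rested on few libraries. In shMETTL3 cells, EIF3E was no longer called without shMETTL3 replicate 2 (-0.24, adjusted p = 0.0854). EIF3B was lost without shMETTL3 replicate 1 (-0.22, adjusted p = 0.0918) or replicate 2 (-0.17, adjusted p = 0.225), and EIF3H likewise (-0.21 for each, adjusted p = 0.114 and 0.126). With library size alone, EIF3B and EIF3H gave -0.14 and -0.16 and were not called (adjusted p = 0.0843 and 0.0589). In shMETTL14 cells EIF3F was lost in 8 of 14 alternatives and EIF3M was lost when any shMETTL3 or shMETTL14 library was left out, with adjusted p from 0.0578 to 0.237. Of the remaining eIF3 subunits, EIF3A, EIF3D, EIF3G, EIF3I, EIF3J, EIF3K and EIF3L had log2 fold changes between -0.15 and 0.01 in shMETTL3 cells, none of them called.

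EIF3C rose in shMETTL3 cells, but its neighbor copy makes the value uncertain. EIF3C had 61.6 and 60.9 CPM in shCTR, 86.2 and 73.2 CPM in shMETTL3, and 67.4 and 65.0 CPM in shMETTL14 libraries, with log2 fold changes of 0.38 (standard error 0.08, adjusted p = 0.00189) and 0.11 (standard error 0.08, adjusted p = 0.442). EIF3CL, a near-identical copy on chromosome 16, had 24.0 and 31.2 CPM in shCTR, 24.6 and 29.8 CPM in shMETTL3, and 38.8 and 15.2 CPM in shMETTL14 libraries. Its shMETTL14 replicates, with 763 and 298 reads, enclosed all other libraries, and its standard error of 0.24 was the largest of the 61 factors in shMETTL3 cells. Summed, the copies had 1692 and 1762 reads in shCTR, 2176 and 2066 in shMETTL3, and 2088 and 1572 in shMETTL14 libraries, and the sum was not called (log2 fold change 0.27, adjusted p = 0.0561). Without shMETTL3 replicate 1 the EIF3C value itself was 0.26 (adjusted p = 0.0828).

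The eIF4 factors bind the cap and unwind the leader of the mRNA. EIF4B, which stimulates the eIF4A helicase, had 956 and 960 CPM in shCTR, 795 and 786 CPM in shMETTL3, and 885 and 908 CPM in shMETTL14 libraries. The 3 groups did not overlap, in the order shCTR, shMETTL14, shMETTL3. Its log2 fold change was -0.28 in shMETTL3 cells (standard error 0.05, adjusted p = 0.00107) and -0.10 in shMETTL14 cells (standard error 0.05, adjusted p = 0.313). The call in shMETTL3 cells stood under all 14 alternatives.

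The helicase eIF4A, which unwinds the mRNA leader, is encoded by related genes. The EIF4A1 row had 12.8 and 10.7 CPM in shCTR, 8.86 and 7.53 CPM in shMETTL3, and 11.0 and 8.88 CPM in shMETTL14 libraries, with log2 fold changes of -0.52 (standard error 0.15, adjusted p = 0.0203) and -0.24 (standard error 0.14, adjusted p = 0.374). Of its exon bases, 48.6% are shared on the same strand with the readthrough gene SENP3-EIF4A1 and other genes. How reads in shared exons were assigned is not given in the sources used here, so the row may not hold all of the gene's reads. EIF4A2, the paralog with a TOP start, had 274 and 251 CPM in shCTR, 254 and 226 CPM in shMETTL3, and 232 and 237 CPM in shMETTL14 libraries, and did not pass the test at -0.13 and -0.16 (adjusted p = 0.195 and 0.157). EIF4A3, which sits in the exon junction complex, gave 0.07 and 0.04 (adjusted p = 0.553 and 0.799). The EIF4A1 call was lost with DESeq2 (adjusted p = 0.0943), without shCTR replicate 1 (-0.38, adjusted p = 0.166) and without shMETTL3 replicate 2 (-0.40, adjusted p = 0.224).

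EIF4E, the cap-binding protein that limits initiation in many cells, had 116 and 112 CPM in shCTR, 103 and 95.4 CPM in shMETTL3, and 100 and 105 CPM in shMETTL14 libraries. Its log2 fold changes were -0.20 (standard error 0.07, adjusted p = 0.0456) and -0.16 (standard error 0.07, adjusted p = 0.181). Among the factors called in shMETTL3 cells it was the least stable, lost under 9 of 14 alternatives, among them DESeq2 (adjusted p = 0.0704) and the removal of shMETTL3 replicate 2 (-0.14, adjusted p = 0.401). EIF4E2, an alternative cap-binding protein, gave -0.07 and -0.02 (adjusted p = 0.611 and 0.937). EIF4E3, another cap-binding relative, was the rarest tested factor per kb of the longest GENCODE transcript, at 0.497 ± 0.146 CPM per kb in shCTR cells (SD, n = 2). It had 5.97 and 3.92 CPM in shCTR, 9.06 and 6.68 CPM in shMETTL3, and 5.19 and 5.25 CPM in shMETTL14 libraries, with log2 fold changes of 0.67 (standard error 0.20, adjusted p = 0.0241) and 0.08 (standard error 0.21, adjusted p = 0.88). Its shMETTL3 value varied with the library left out, from 1.00 without shCTR replicate 1 (adjusted p = 0.00707) to 0.39 without shCTR replicate 2 (adjusted p = 0.191), and was 0.43 without shMETTL3 replicate 1 (adjusted p = 0.274).

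The eIF4G scaffold genes were not called in either knockdown. EIF4G1 had 316 and 311 CPM in shCTR, 328 and 319 CPM in shMETTL3, and 347 and 325 CPM in shMETTL14 libraries, and the 95% intervals of its log2 fold changes were -0.07 to 0.17 and -0.02 to 0.22. EIF4G2 gave -0.04 and 0.09 (adjusted p = 0.653 and 0.411), and EIF4G3 gave 0.13 and 0.05 (adjusted p = 0.223 and 0.73). The eIF4E-binding proteins hold eIF4E away from eIF4G until mTORC1 phosphorylates them. EIF4EBP1 had 118 and 129 CPM in shCTR, 132 and 139 CPM in shMETTL3, and 120 and 129 CPM in shMETTL14 libraries, with 0.14 (adjusted p = 0.17) and 0.01 (adjusted p = 0.935). EIF4EBP2 had 133 and 138 CPM in shCTR, 145 and 157 CPM in shMETTL3, and 128 and 127 CPM in shMETTL14 libraries. It was not called against shCTR (0.16 and -0.08, adjusted p = 0.0904 and 0.518).

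**Figure D3:**
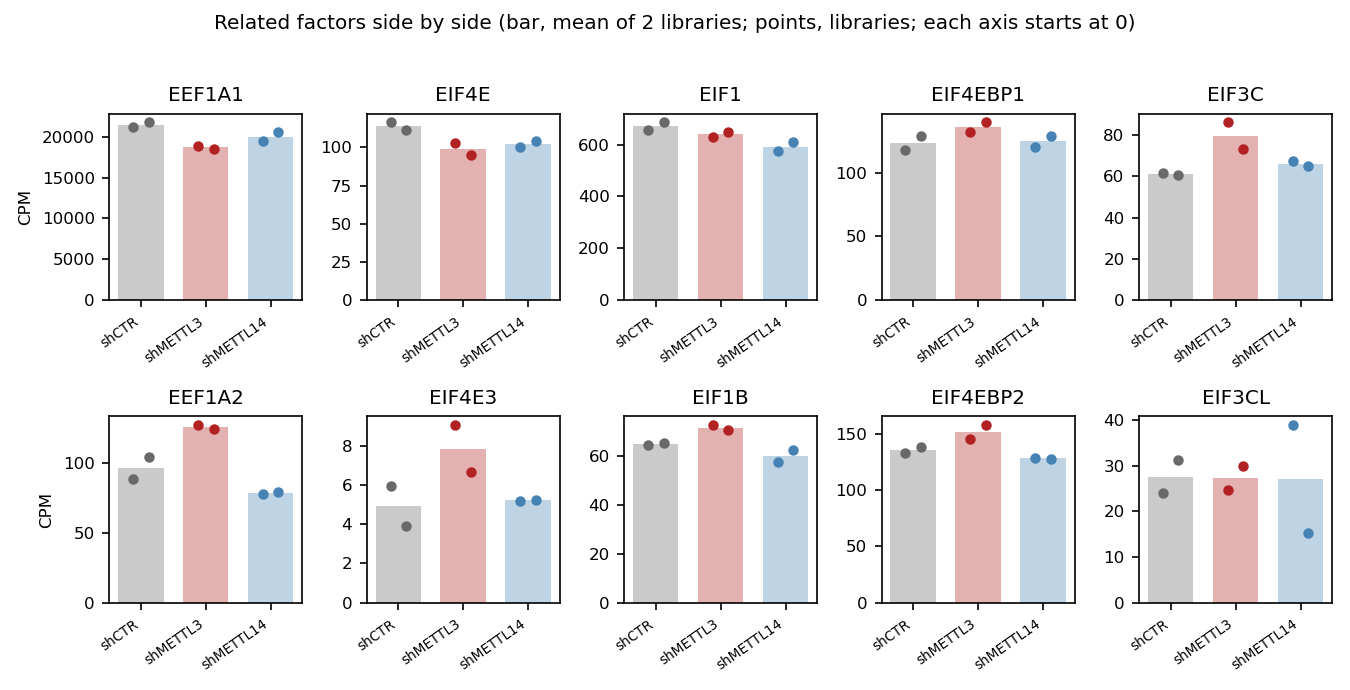
CPM (y axis, starting at 0 in each panel) of pairs of related factors in the 3 groups (x axis), with bars for the mean of 2 libraries and points for the libraries. EEF1A1 and EIF4E are lower in shMETTL3 cells while EEF1A2 and EIF4E3 are higher, and the EIF3CL points of shMETTL14 lie at 38.8 and 15.2 CPM.

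EIF5, which triggers GTP hydrolysis on eIF2 at the start codon, had 237 and 228 CPM in shCTR, 203 and 206 CPM in shMETTL3, and 230 and 233 CPM in shMETTL14 libraries. Only the shMETTL3 libraries lay apart, at -0.19 (adjusted p = 0.0341), against -0.01 (adjusted p = 0.97) in shMETTL14 cells, and that call was lost under 8 of 14 alternatives, with adjusted p up to 0.205. EIF1, which guards start codon choice, had 658 and 686 CPM in shCTR, 630 and 650 CPM in shMETTL3, and 574 and 611 CPM in shMETTL14 libraries. It gave -0.07 (adjusted p = 0.432) and -0.18 (adjusted p = 0.0587). Its close relative EIF1B had 64.5 and 65.3 CPM in shCTR, 72.6 and 70.4 CPM in shMETTL3, and 57.6 and 62.5 CPM in shMETTL14 libraries, with 0.14 (adjusted p = 0.174) and -0.11 (adjusted p = 0.386). EIF1 was lower and EIF1B higher than shCTR in the shMETTL3 libraries, neither past the threshold.

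Factors of the last steps of initiation and of peptide bond formation were not called in either comparison with shCTR. EIF5A, the hypusine-carrying factor that helps the ribosome through difficult peptide bonds, had 388 and 394 CPM in shCTR, 349 and 374 CPM in shMETTL3, and 372 and 373 CPM in shMETTL14 libraries, giving -0.11 (adjusted p = 0.193) and -0.07 (adjusted p = 0.537). Its paralog EIF5A2 gave -0.00 and -0.10 (adjusted p = 0.982 and 0.651), and EIF5AL1, which resembles an EIF5A copy, -0.05 in each (adjusted p = 0.86 and 0.886). EIF5B, the GTPase that joins the ribosomal subunits, gave -0.09 and -0.05 (adjusted p = 0.394 and 0.76), and EIF6, which keeps them apart, gave -0.02 and 0.07 (adjusted p = 0.891 and 0.612).

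Set directly against each other, the knockdowns differed in 6 of the 61 factors, which is 9.84% against 12.1% of all genes, with 4 higher in shMETTL3 cells (6.65% of all genes) and 2 lower (5.49% of all genes). The CPM did not overlap for 13 higher and 21 lower factors, against 28.4% and 28.3% of all genes. Beside EEF1A2, the factors higher in shMETTL3 than in shMETTL14 cells were EIF1B (log2 fold change 0.25, standard error 0.07, adjusted p = 0.0188), EIF3C (0.27, standard error 0.08, adjusted p = 0.0241) and EIF4EBP2 (0.24, standard error 0.06, adjusted p = 0.0155), and those lower were EIF4B (-0.18, standard error 0.05, adjusted p = 0.0246) and EIF5 (-0.18, standard error 0.06, adjusted p = 0.0498). Apart from EEF1A2, each of these calls was lost without at least 1 of the 4 knockdown libraries, with EIF3C at 0.15 without shMETTL3 replicate 1 (adjusted p = 0.412), and 2 or 3 of the 61 factors were called with any of these libraries left out. With library size alone, 5 factors were higher and 0 lower. Of the 13 factors called lower in shMETTL3 cells, 11 did not differ between the knockdowns past the threshold. Among them were EEF1B2 (95% interval -0.21 to 0.04), EIF2B3 (-0.22 to 0.05), EIF2S3 (-0.13 to 0.09) and EIF3M (-0.22 to 0.01). The intervals lay below 0 for EEF1A1 (-0.19 to -0.00, adjusted p = 0.179), EIF3B (-0.26 to -0.02, adjusted p = 0.114) and EIF3E (-0.28 to -0.04, adjusted p = 0.0712). EIF3E was called with DESeq2, with the compared groups only and with the replicate block, and EIF3B with the GC and length trend removed.

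Grouped by start sequence, a grouping chosen after the values were seen, 6 of the 13 tested factors that open with a C and 4 pyrimidines were lower in shMETTL3 cells (EEF1A1, EEF1B2, EIF2A, EIF2S3, EIF3M and EIF4B), with a median log2 fold change of -0.19 and 10 of 13 below 0. Of 35 tested factors with another start, 5 were lower and 2 higher, with a median of -0.06, and of 13 without a listed start, 2 were lower and 1 higher, with a median of -0.10. In shMETTL14 cells, 4 of the 13 were lower (EEF1B2, EIF2S3, EIF3F and EIF3M), with a median of -0.15 and 12 of 13 below 0, and of the 35 with another start 1 was lower, with a median of -0.06. Of all genes tested, 7.73% and 3.26% were lower in the respective comparisons. The edgeR test called 0 of the 13 higher in either knockdown, with 0 at an unadjusted p under 0.05 and 0 by DESeq2. Without shMETTL3 replicate 2, 3 of the 13 were lower in shMETTL3 cells, and without any single shMETTL3 or shMETTL14 library 0 or 1 was lower in shMETTL14 cells. EIF2S3 and EIF2S3B share most of their sequence, also at the start, so the 13 are not independent.

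The pyrimidine start was not shared by all lower factors, nor were all factors with it lower. EIF2B3, EIF3B, EIF4E, EIF4A1 and EIF5 were lower in shMETTL3 cells with another start, and EEF2, EIF3D and EIF2D carried the pyrimidine start at log2 fold changes of 0.03, 0.00 and 0.11. Of a list of 9 factor mRNAs long known as TOP mRNAs (EEF1A1, EEF1B2, EEF1D, EEF1G, EEF2, EIF3E, EIF3F, EIF3H and EIF4B), 8 could be tested, 5 of them lower in shMETTL3 and 2 in shMETTL14 cells, against 7.73% and 3.26% of all genes. The median log2 fold changes of this list were -0.20 and -0.10. The list shares EEF1A1, EEF1B2, EEF2, EIF3F and EIF4B with the group that has the pyrimidine start. It was also chosen with earlier results of these data known, so it is not an independent test of that grouping. EEF2 and EEF1D were the 2 members of the list above 0 in both knockdowns.

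**Figure D4:**
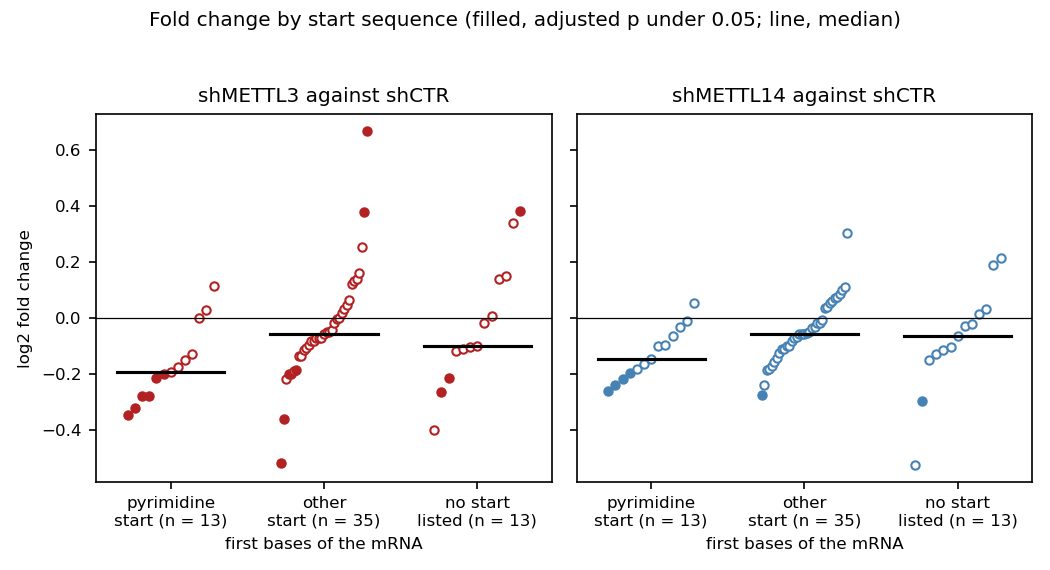
Log2 fold change (y axis) of the 61 tested factors by the first bases of the mRNA (x axis: a C and 4 pyrimidines, another start, or no start listed), for shMETTL3 on the left and shMETTL14 on the right; filled circles have an adjusted p under 0.05 and lines are medians. The medians of the pyrimidine group lie at -0.19 and -0.15, those of the group with another start at -0.06 in both panels.

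Of 59 genes that regulate or assist these factors, 58 were tested, and 10 differed from shCTR in shMETTL3 cells, 2 higher and 8 lower (17.2% against 16.5% of all genes). MKNK2, a kinase that phosphorylates eIF4E, had 215 and 229 CPM in shCTR, 285 and 302 CPM in shMETTL3, and 226 and 227 CPM in shMETTL14 libraries, a log2 fold change of 0.40 in shMETTL3 cells (standard error 0.06, adjusted p = 1.33e-04). RPTOR, the mTORC1 subunit that recruits its substrates, gave 0.24 (standard error 0.07, adjusted p = 0.0197), which fell to 0.08 (adjusted p = 0.343) after a trend with GC content and length was removed. The 5 with the largest falls were PCBP2, an RNA-binding protein used in cap-independent initiation (-0.32, adjusted p = 0.00171), NCBP1, the large subunit of the nuclear cap-binding complex (-0.31, adjusted p = 0.00244), the ribosomal protein RPS6 (-0.25, adjusted p = 0.00389), the ribosome rescue factor HBS1L (-0.25, adjusted p = 0.0197) and the recycling factor MCTS1 (-0.23, adjusted p = 0.0199). With the GC and length trend removed, MKNK2 gave 0.24 (adjusted p = 8.64e-04) and RPS6 -0.14 (adjusted p = 0.0453), and MCTS1 was no longer called at -0.11 (adjusted p = 0.189). HBS1L was not called without shCTR replicate 1, at -0.16 (adjusted p = 0.145). The median of the 58 was -0.07. The scaling decided the direction of this list, since with library size alone 5 were higher and 3 lower. Without shMETTL3 replicate 1 or replicate 2, 3 were called, and without shCTR replicate 2, 18.

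In shMETTL14 cells 3 of the 58 genes were lower (5.17% against 6.69% of all genes), and edgeR called 0 higher, with 3 at an unadjusted p under 0.05 and 0 by DESeq2. CYFIP1, which binds eIF4E and blocks eIF4G, had 73.6 and 71.3 CPM in shCTR, 68.3 and 66.9 CPM in shMETTL3, and 52.5 and 52.8 CPM in shMETTL14 libraries. It was far lower in the shMETTL14 libraries than in the others, by 0.46 below shCTR (log2 fold change -0.46, standard error 0.07, adjusted p = 1.70e-04). NCBP1 gave -0.32 (adjusted p = 0.00444) and HBS1L -0.30 (adjusted p = 0.0158). The count was 1 without either shMETTL14 library and 6 without shCTR replicate 2. Between the knockdowns 6 of the 58 differed (10.3% against 12.1%). MKNK2 (0.37, adjusted p = 2.60e-04), CYFIP1 (0.36, adjusted p = 0.00102), the m6A reader YTHDF1 (0.27, adjusted p = 0.0186) and the eIF2 alpha phosphatase subunit PPP1R15A (0.19, adjusted p = 0.0485) were higher in shMETTL3 cells, and the helicase DHX9 (-0.20, adjusted p = 0.0489) and the heme-regulated eIF2 alpha kinase EIF2AK1 (-0.20, adjusted p = 0.0227) were lower. With any of the 4 knockdown libraries left out, 2 or 3 were called.

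Besides EEF1G, 4 factors did not reach the level needed for a test. The readthrough row EEF1E1-BLOC1S5 and EIF1AY, a gene on the Y chromosome, had 0 reads. EIF4E1B had at most 1 read in a library, and the third eIF4E-binding protein EIF4EBP3 had at most 5. Of the exon bases of EIF4EBP3, 73.4% are shared with the readthrough gene ANKHD1-EIF4EBP3. At this depth, expression of these genes was not detectable or rested on a few reads. Shared exons limit what the rows of EEF1G, EEF1E1-BLOC1S5 and EIF4EBP3 can show. EIF1AY and EIF4E1B shared no exon bases with other genes.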

How the data were processed

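Poly(A)-selected RNA of 6 K562 libraries was sequenced on the HiSeq platform, and the groups and replicate numbers were taken from the labels. The authors deposited raw counts, whole-number reads per gene; the submitters' processing notes name HTSeq 0.6.1 and hg38, while the aligner, annotation release and strand setting are not given in the sources used here. Of 61661 rows, 986 were outside Ensembl and were kept for the totals, at 0.635% to 0.703% of the reads. A gene name table gave 56558 symbols and GENCODE release 29 another 497; gene type, length and GC content came from GENCODE, and start sites from RefSeq. Members and gene lists were chosen with earlier results of these data known.

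The count model was edgeR 4.0.16 under R 4.3.3. After filterByExpr (minimum count 10), 17686 genes remained; with TMM scaling, quasi-likelihood tests were run in 1 fit of all 6 libraries (3 residual degrees of freedom) with Benjamini-Hochberg adjustment over all genes tested and a threshold of 0.05. CPM are scaled by TMM factors, and SD and n refer to 2 libraries. The steps were tested on simulated data with 2-fold changes in shMETTL3 against shCTR. These are larger than the changes reported for the called factors, and the recovery of smaller changes was not tested. Within each group the replicates differed beyond sampling noise (mean chi-square per gene 2.55 to 5.30). Values in full were given for factors past the threshold against shCTR, up to 12 in each direction, for sets of paralogs, and for up to 5 regulators in each direction. The alternatives were DESeq2 1.42.0, its size factors, library size alone, no filter, a fit of the compared groups only, a block for the replicate number, a GC and length trend removed with mgcv 1.9.3, and each library left out, where a lone library was assumed to vary like the other groups. Summing near-identical copies, and the grouping by start sequence, were chosen after seeing the data. No column of the table was left out.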

Additional observations from a re-analysis of the deposited data

How the results depend on the processing

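Over the alternatives run, no fold change past the threshold among the named factors and regulators changed sign, while values near 0 could, such as EEF2 in shMETTL3 cells (0.03, from -0.10 to 0.09). Of the 61 factors, 16 differed in shMETTL3 cells, 6 in shMETTL14 cells and 6 between the knockdowns; with DESeq2 these counts were 13, 7 and 5. Fitting the compared groups only left 3 factors in shMETTL14 cells. With a GC and length trend removed, 12 factors (7 higher, 5 lower) and 12 regulators (3 higher, 9 lower) differed between the knockdowns, and 7 regulators in shMETTL14 cells; the factors called lower in shMETTL3 cells had a median GC content of 42.7% against 46.4% for those not called, and the cause was not tested.

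Same-numbered libraries deviated together weakly (correlations -0.02 to 0.0614), so the numbers are only shared. With the replicate block, 17, 7 and 8 factors and 13, 5 and 8 regulators were called, the 5 in shMETTL14 cells against 3 without the block.

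With each library left out, the factors called ran from 7 to 20 in shMETTL3 cells, 1 to 6 in shMETTL14 cells and 2 to 9 between the knockdowns, and the regulators from 3 to 18, 1 to 6 and 2 to 9. Factors with a pyrimidine start called lower in shMETTL14 cells were 4, but 2 with library size alone and 1 with the compared groups only, and between the knockdowns 1, but 0 with library size alone. Over all genes, 2912, 1184 and 2148 were called, against 1752, 713 and 1243 with DESeq2, and 766 in shMETTL14 cells with no filter. With library size alone, 2158 genes were higher and 858 lower in shMETTL3 cells, where TMM gave 1544 and 1368. EEF1A2, EEF1B2, EIF2B3, EIF3M and EIF4B were called in shMETTL3 cells under all 14 alternatives. With 2 libraries in each group, a fold change with the smallest standard errors here, about 0.04 on the log2 scale, could be called at -0.20 and not at -0.10 (EEF1A1).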

Other observations

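The count table holds 155 pseudogene rows named after a translation factor, of which 24 had more than 3 reads in every library. Most of these reads were in copies of EEF1A1: its 49 pseudogene rows summed to between 19724 and 21716 reads in a library, and EEF1A1P5 alone held 0.0914% to 0.0989% of a library's reads, more than most intact factors. EEF1A1P5 stood at 0.0989% and 0.0974% of the shCTR libraries, 0.0953% and 0.0932% of the shMETTL3 libraries, and 0.0914% and 0.0951% of the shMETTL14 libraries, so that, like EEF1A1, both knockdowns lay below shCTR. Reads of the parent gene and its copies could not be separated from the counts, and no test was run on these shares.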
